A study of Sus scrofa with 12 samples.

Results

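The genes described here encode proteins of the spliceosome and the regulators that steer it, measured as mRNA in pig blastocysts. They were chosen by symbol alone, as all genes whose pig Ensembl symbol begins with the stems of the Sm and U snRNP proteins (SNRPA to SNRPG, SNRNP), of SF3A and SF3B, of the PRPF factors, of U2AF, of the SR proteins (SRSF), of the hnRNP proteins (HNRNP) and of ESRP. The rule found 64 genes among the 31781 gene identifiers of the deposited table, of which 15347 carry a symbol. Of these 64 genes, 61 were tested, since they stood at 1 FPKM or more in 3 or more libraries. The other 3, PRPF19, PRPF40B and HNRNPUL2, stayed below that level. No identifier carried the symbol SNRPB, SNRPD3, SNRPG, SNRPC, SF3B1, PRPF4B or PRPF38B, so these core factors are not described.

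The blastocysts came from pig (Sus scrofa) eggs activated without sperm (parthenogenetic), and RNA was amplified with Smart-Seq2, which copies polyadenylated RNA from very small inputs. The study compared fresh embryos with embryos that were vitrified, that is cooled so fast that they solidify as a glass. The groups analysed were a fresh, non-vitrified control (3 libraries), vitrification (2 libraries), vitrification I (3) and vitrification II (3), named as in the labels. The third library of vitrification was not analysed here, because the table held no column for it. The labels do not say how the vitrified groups differ, which of them met the liquid helium of the series title, or how many embryos went into a library. They name blastocyst as the source while the protocol describes sorted single cells, so the variation between libraries could be technical. The p-values here reflect how much libraries vary within groups, pooled over the 4 groups.

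Splicing removes introns from pre-mRNA and joins the exons. The spliceosome assembles anew on each intron: U1 marks the 5′ splice site, U2AF and U2 mark the 3′ end and the branch point, and the U4/U6.U5 tri-snRNP then joins and is remodelled into the catalytic machine. SR proteins mostly promote the use of exons, hnRNP proteins often repress it, and ESRP proteins set the exon choice typical of epithelia, of which the trophectoderm of the blastocyst is one. The values are mRNA levels per gene and show neither which exons were used nor how much protein was made.

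Levels are FPKM, fragments scaled to transcript length and to the size of the library, so genes can be compared with each other. Over the libraries the FPKM of all genes summed to between 439650 and 591894, and without counts in the table the depth of sequencing is unknown. Vitrification I had the fewest genes listed above 0, at 12340, 14039 and 11550, against 15383 to 18527 in the other libraries. At an FPKM of 1 or more it held 6808 to 7801 genes, against 6761 to 7589 in fresh control. The part of this difference in the falls of low-level genes was not tested. Genes of the mitochondrial genome held 39.9% ± 3.44 of the FPKM for fresh control, 45.3% ± 9.21 for vitrification, 55.7% ± 10.6 for vitrification I and 19.6% ± 2.59 for vitrification II (mean ± SD). This share moved with the groups, and its part in the results below was not tested beyond the rescaling given with them. The labelled blastocyst identity was checked with markers: all 11 trophectoderm genes listed were measured, with a summed FPKM of 10516 to 15555 in fresh control, 6717 to 17079 in vitrification, 2779 to 6096 for vitrification I and 13959 to 22234 for vitrification II. KRT8 and KRT18 carried 78.7% to 98.1% of that sum in every library. The other 9 summed to 327 to 420, 326 to 424, 482 to 620 and 541 to 837 in the same order of groups, so without these keratins vitrification I was not the lowest group. At least 10 of the 11 stood at an FPKM of 1 or more in every library. Of 6 epiblast markers 4 had an identifier, with a summed FPKM of 8.22 to 12.6, 8.15 to 23.7, 1.37 to 6.90 and 37.2 to 89.5 in the same order, and of 4 hypoblast markers 3 had one, at 10.6 to 19.3, 18.3 to 45.1, 16.4 to 23.3 and 19.0 to 26.5. LIN28A alone made up 66.0% to 91.2% of the epiblast sum in vitrification II, where NANOG stood at 0.0501, 0.937 and 6.72. Granulosa or cumulus markers summed to at most 0.205 in any library, with HAS2 and PTX3 at 0 in all 11. Oocyte markers summed to 3.85 to 13.4, mostly GDF9, with ZP3, ZAR1 and NLRP5 at 0 in all 11. The part of these lineage markers in the results was not tested. A lower level of a transcript cannot be told apart from fewer cells that hold it.

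Splicing genes were broadly present. Of the 64, 47 stood at an FPKM of at least 1 in every library. The mean over all libraries was at least 100 for 4 genes, 10 to 100 for 32, 1 to 10 for 25 and below 1 for the 3 that were not tested. The summed level of the 64 genes was 0.314% ± 0.0988 of all FPKM in fresh control, 0.302% ± 0.000608 in vitrification, 0.351% ± 0.129 for vitrification I and 0.601% ± 0.0483 for vitrification II. As a share of the FPKM outside the mitochondrial genome it was 0.531% ± 0.201, 0.559% ± 0.0952, 0.782% ± 0.198 and 0.748% ± 0.0702 in the same order. On the first scale every vitrification II library lay above every other library, and on the second scale the libraries of vitrification II overlapped those of fresh control and vitrification I.

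**Figure D1:**
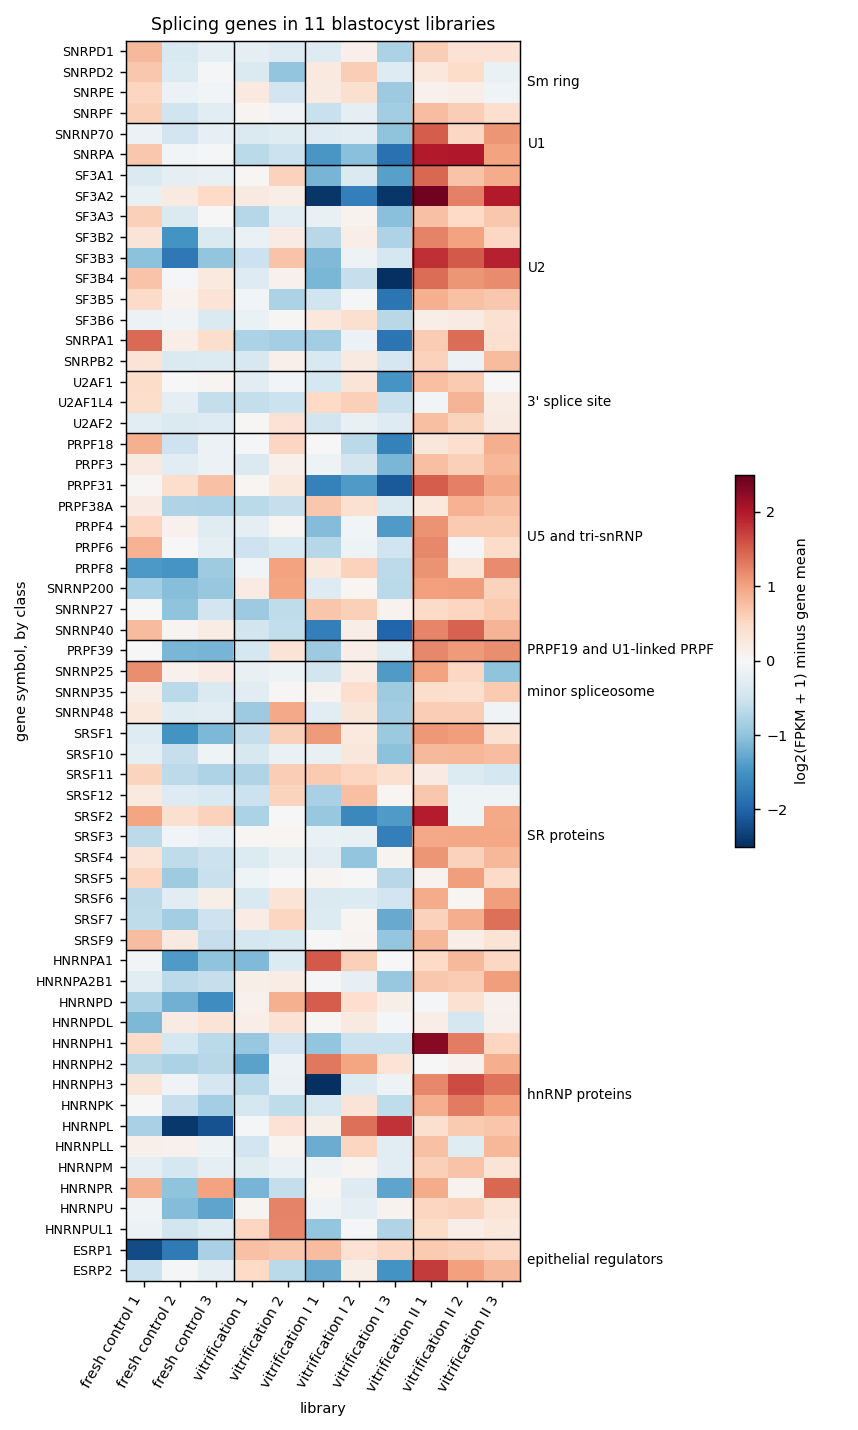
Each row is 1 tested splicing gene, each column 1 of the 11 libraries, and the colour is log2(FPKM + 1) minus the mean of that gene over all libraries (red above, blue below). Vitrification II is red in most rows, while vitrification I is mixed, blue for SNRPA, SF3A2 and PRPF31 and red for HNRNPL and HNRNPD.

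Differences were tested with limma on log2(FPKM + 1), with Benjamini-Hochberg adjustment over the 9411 genes that passed the filter, and the threshold for a call was an adjusted p of 0.05. All changes below are log2 differences of group means on that scale, ± SE, which understate the change of genes near an FPKM of 1. Because the median of all genes itself differed between groups, changes are given relative to it wherever it moved by more than 0.1. That median lay 0.19 higher in vitrification, 0.62 higher in vitrification II and 0.06 lower in vitrification I than in fresh control. It lay 0.68 higher in vitrification II than in vitrification I, 0.46 higher in vitrification II than in vitrification, and 0.26 lower in vitrification I than in vitrification. The changes of vitrification I against fresh control are given without this correction, and a few others are given both ways and marked as uncorrected and relative. The calls themselves and every adjusted p rest on the uncorrected differences. An adjusted p printed beside a relative change therefore tests the uncorrected change, which differs from it by the shift of the median.

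On the deposited FPKM scale vitrification II held the most splicing gene calls against fresh control, all of them higher, but that order depends on the scale. Against fresh control 25 of 61 rose and 0 fell (limma; 0 lower also at an unadjusted p under 0.05), which is 41.0% of the members, where 24.6% of all genes were called higher and 1.09% lower. Their median relative change was 0.22, against 0 for all genes. This gap was smaller with a pseudocount of 0.1, where the uncorrected medians were 0.97 for the members and 0.85 for all genes. With the pseudocount of 1 they were 0.84 and 0.62. Against vitrification I 30 of 61 rose and 0 fell (0 lower at an unadjusted p under 0.05), or 49.2%, where 34.7% of all genes were called higher and 38.4% in either direction, and the median relative change was 0.32. Against vitrification 6 rose and 0 fell (25 higher and 0 lower with the unadjusted p under 0.05), where 5.05% of all genes were called higher and 5.98% in either direction, and the median relative change was 0.38. The counts against fresh control and vitrification I rest on the scale: after quantile normalization, which removes the shift of the median, 3 rose and 0 fell against fresh control (14 members at an unadjusted p under 0.05), or 4.92% against 4.11% of all genes called higher. Against vitrification I 15 then rose and 4 fell (24.6% and 6.56%), where 13.6% of all genes were called higher and 14.6% lower. With each library scaled to its non-mitochondrial FPKM total 12 rose in each of these comparisons, or 19.7%, where 12.7% of all genes were called higher against fresh control and 16.5% against vitrification I. After quantile normalization vitrification I held more member calls against fresh control (15) than vitrification II (3), and with the non-mitochondrial total the counts were 11 and 12. The 25 against fresh control became 9 without control replicate 2, 10 without control replicate 3, 11 without vitrification II replicate 1, and 14 when replicate 2 or 3 of vitrification II was left out. The count over all 9411 genes fell as well. From 2319 called higher it became 976, 1190, 1596, 1646 and 1432 under these omissions, in the same order. The 6 against vitrification became 0 without either vitrification library or vitrification II replicate 1 or 2, 2 without vitrification II replicate 3, 3 without control replicate 2 or 3, and 11 without vitrification I replicate 3. All genes called higher there went from 475 to 29 and 6 without vitrification replicates 1 and 2, and to 795 without vitrification I replicate 3.

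Vitrification I moved both ways. Against fresh control 6 of 61 splicing genes rose and 7 fell, where 8.85% of all genes were called higher and 9.77% lower, so the share of 21.3% called stood near the 18.6% of all genes. Of the 6 that rose, 4 encode hnRNP proteins (14 tested) and 1 the U5 protein PRPF8. Of the 7 that fell, 6 encode parts of the U1, U2, U5 or U4/U6 particles. The genes tested there were 2 for U1, 10 for U2 and 10 for U5 and the tri-snRNP. After quantile normalization 7 rose and 8 fell (11.5% and 13.1%, against 11.7% and 10.6% of all genes). After rescaling to the non-mitochondrial total 7 rose and 4 fell (11.5% and 6.56%, against 14.3% and 5.33%). Without vitrification I replicate 1 the 13 calls became 8, where the 1752 calls over all genes became 1026. Vitrification against fresh control gave 1 gene higher, ESRP1, and 0 lower (limma; 9 higher and 1 lower with the unadjusted p under 0.05), where 1.25% of all genes were called higher and 0.117% lower. That count was 0 without control replicate 2 or vitrification replicate 2, and 2 without control replicate 1 or vitrification I replicate 3. Vitrification I against vitrification gave 1 higher and 3 lower, where 1.21% and 4.42% of all genes were called, or 5.63% in either direction. These 4 calls became 0 without either vitrification library, 1 without vitrification I replicate 1, and 2 without control replicate 2 or 3 or any vitrification II library. The 530 calls over all genes became 7 and 98 without vitrification replicates 1 and 2, and 112 without vitrification I replicate 1. In the F test over the 4 groups 32 of 61 differed, or 52.5%, where 42.7% of all genes did.

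**Figure D2:**
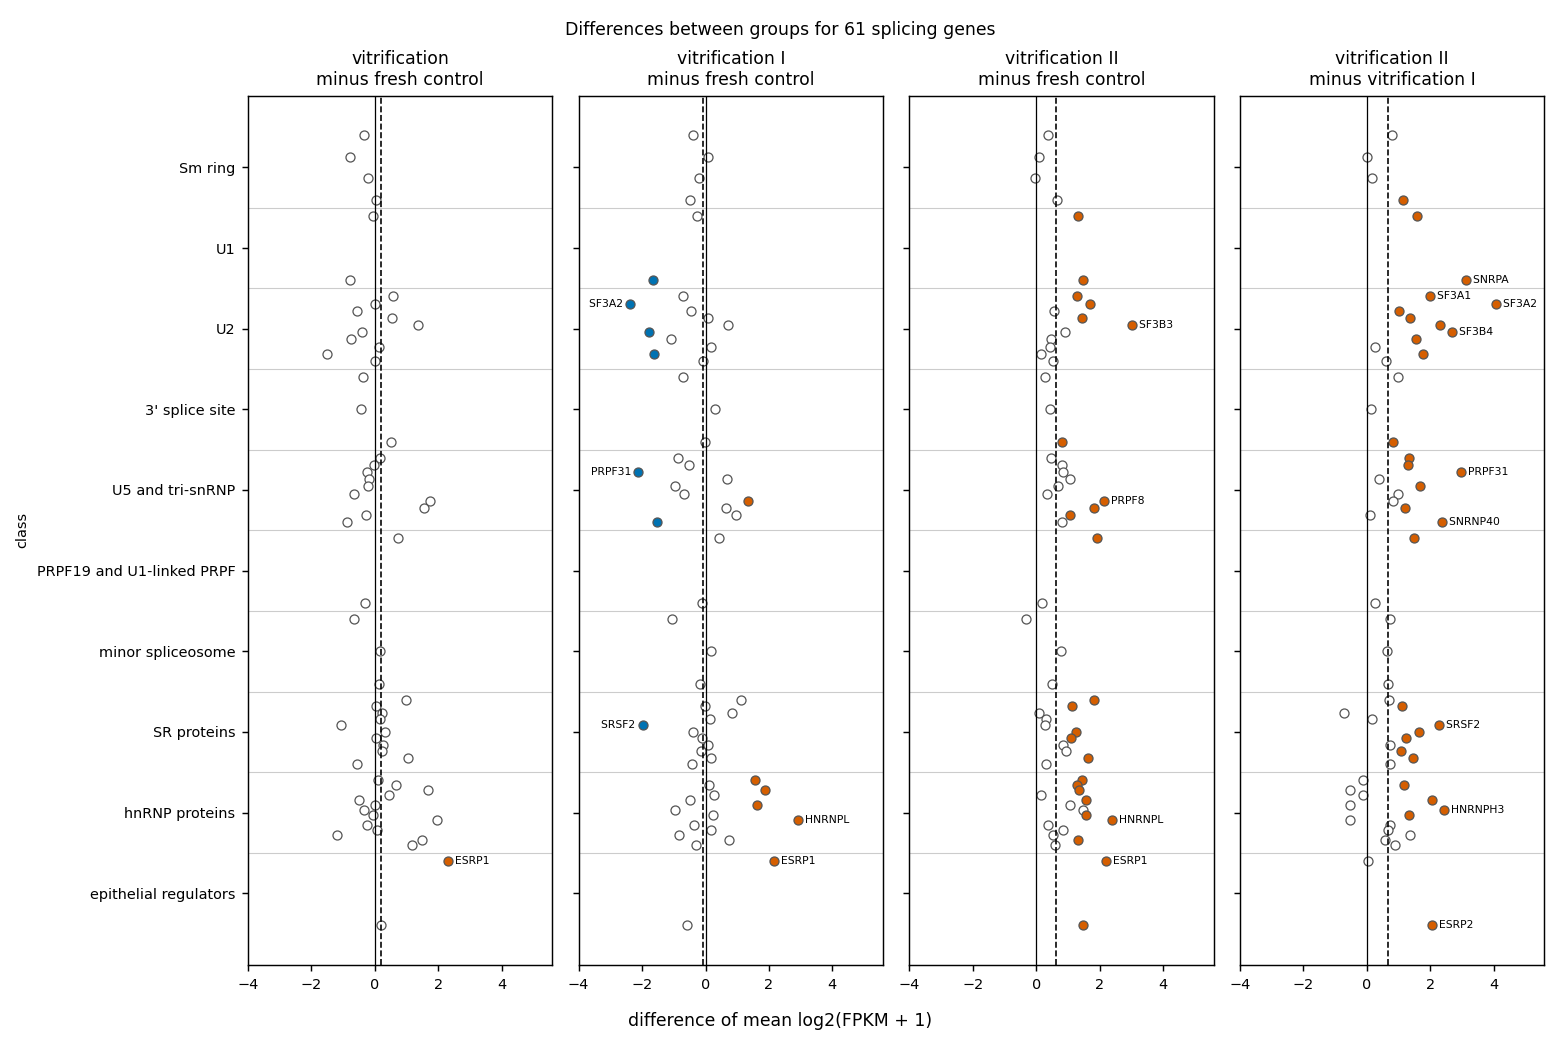
Each circle is 1 of the 61 genes, placed by class and by its difference in mean log2(FPKM + 1) between the 2 groups named above each panel. Orange marks genes called higher and blue genes called lower, the dashed line is the median of all 9411 genes, and names mark most of the called genes that differ by about 2 or more. Vitrification II has 25 orange and 0 blue circles against fresh control and 30 and 0 against vitrification I, while vitrification I has 6 and 7 against fresh control.

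Groups that do not overlap were counted too. All vitrification II libraries lay above all fresh control libraries for 38 of 61 members and below for 0, where this held for 44.0% and 3.41% of all genes. They lay above all vitrification I libraries for 38 and below for 1, where this held for 42.6% and 7.07% of all genes. They lay above both vitrification libraries for 42 and below for 2, where this held for 39.5% and 7.27%. Vitrification I lay above fresh control for 8 and below for 8, where this held for 17.3% and 18.9% of all genes. It lay above vitrification for 5 and below for 13, where this held for 8.94% and 25.9%. Vitrification lay above fresh control for 13 and below for 9, where this held for 25.5% and 11.5%.

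How firm the single calls are differed. Each was recomputed under 18 alternatives: another pseudocount, no filter, 2 other scalings, no trend in the prior, a replicate block, a fit on the 2 groups only, and the omission of each of the 11 libraries. In vitrification II against fresh control 3 of the 25 calls held under all 18 (SF3B3, PRPF8 and HNRNPK), and 9 held without any single library. Against vitrification I 11 of the 30 held under all 18, and 19 without any single library. In vitrification I against fresh control 6 of the 13 held under all 18 (SF3A2, SNRPA, PRPF31, HNRNPL, HNRNPD and ESRP1), and 8 without any single library. None of the 11 calls in the comparisons that involve the 2 vitrification libraries held under all 18. Below, a call that is said to hold held under all 18.

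The Sm ring proteins are shared by most spliceosomal snRNPs, where they form a ring around the snRNA. They include SNRPE, the transcript with the highest mean FPKM of the set in fresh control. In the F test over the groups 0 of 4 were called (limma, with 1 at an unadjusted p under 0.05), where 42.7% of all genes were. SNRPE (ENSSSCG00000023562), a subunit of the ring, stood at 722, 447 and 469 FPKM in fresh control, 587 and 355 in vitrification, 581, 656 and 262 in vitrification I, and 531, 558 and 459 in vitrification II. All 4 groups overlapped. The uncorrected difference between vitrification II and fresh control was -0.05 ± 0.38 (adjusted p = 0.931), with a 95% interval of -0.87 to 0.77, and the relative difference was -0.67. SNRPD2, the next most abundant, averaged 129.7 ± 49.4, 73.9 ± 22.4, 136 ± 42.3 and 134 ± 28.6 FPKM (SD) in the order fresh control, vitrification, vitrification I and vitrification II. SNRPD1 averaged 13.4 to 23.1 over the groups. SNRPF, at 15.3 to 34.8, was the only one called in any comparison, higher in vitrification II than in vitrification I. Its relative change was 0.47 ± 0.36 (adjusted p = 0.0214, for the uncorrected difference). That call ended under 6 alternatives (adjusted p = 0.0544 to 0.318), among them the omission of vitrification I replicate 1 or 3 or of vitrification II replicate 1 or 2. Mammalian Sm protein genes often have near-identical processed copies, and how reads shared with such copies were counted is not given in the sources used here.

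The U1 transcripts tested, SNRPA and SNRNP70, were highest in vitrification II. Only SNRPA was lowest in vitrification I, since SNRNP70 there overlapped fresh control and vitrification. SNRPA (ENSSSCG00000002998), the U1 protein that binds a stem-loop of U1 snRNA, stood at 17.2, 9.90 and 10.0 FPKM in fresh control, 6.11 and 6.89 in vitrification, 3.15, 4.53 and 2.11 in vitrification I, and 44.2, 44.5 and 22.0 in vitrification II. No 2 groups overlapped, and the order from low to high was vitrification I, vitrification, fresh control, vitrification II. SNRPA fell by 1.65 ± 0.39 in vitrification I against fresh control (adjusted p = 0.0105), and that call held. It was 2.44 ± 0.39 higher in vitrification II than in vitrification I (adjusted p = 7.96e-05), which also held. The rises against fresh control (0.86 ± 0.39, adjusted p = 0.0142) and against vitrification (1.81 ± 0.44, adjusted p = 0.0161) each ended under 5 alternatives. Against fresh control these were quantile normalization and the omission of control replicate 2 or 3 or of replicate 1 or 2 of vitrification II (adjusted p = 0.0566 to 0.176). Against vitrification they were the non-mitochondrial total and the omission of either vitrification library or of vitrification II replicate 1 or 2 (adjusted p = 0.0501 to 0.0978).

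SNRNP70 (ENSSSCG00000023792), the U1 protein through which SR proteins contact U1, was a low-level transcript except in vitrification II. It stood at 0.963, 0.559 and 0.873 FPKM in fresh control, 0.696 and 0.768 in vitrification, 0.732, 0.779 and 0.0783 in vitrification I, and 5.21, 2.09 and 3.66 in vitrification II. Every vitrification II library lay above the other 8. The gene was 0.90 ± 0.34 higher in vitrification II than in vitrification I (adjusted p = 0.00234), a call that held. Its rise against fresh control was 0.70 ± 0.34 (adjusted p = 0.012) and ended without control replicate 2 (0.0626), with a pseudocount of 0.1 (0.056) and after quantile normalization (0.2). Its rise against vitrification (0.91 ± 0.38, adjusted p = 0.0455) ended under 15 of 18 alternatives (0.0509 to 0.202), among them the omission of control replicate 2 or 3, either vitrification library, vitrification I replicate 1 or any vitrification II library.

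The U2 particle binds the branch point through the SF3A and SF3B complexes. Of 10 tested, 8 were higher in vitrification II than in vitrification I, 4 higher in vitrification II than in fresh control, and 3 lower in vitrification I than in fresh control. These are 80.0%, 40.0% and 30.0% of the class, where 34.7%, 24.6% and 9.77% of all genes were called. After quantile normalization these counts were 6, 1 and 3, and with the non-mitochondrial total 4, 2 and 1. The median relative change was 0.97 for vitrification II against vitrification I, 0.12 for vitrification II against fresh control, and -0.51 for vitrification I against fresh control.

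SF3A2 (ENSSSCG00000061881), the SF3A subunit that helps to seat U2 on the branch point, stood at 3.77, 5.36 and 6.62 FPKM in fresh control and 5.30 and 5.05 in vitrification. In vitrification I, the group with the fewest genes listed above 0, it was listed at 0, 0.662 and 0. In vitrification II it was listed at 27.8, 12 and 20.4. Neither vitrification I nor vitrification II overlapped any other group. SF3A2 fell by 2.37 ± 0.39 in vitrification I against fresh control (adjusted p = 0.00132) and was 3.39 ± 0.39 higher in vitrification II than in vitrification I (adjusted p = 2.07e-05), and both calls held. It fell by 2.13 ± 0.44 against vitrification (adjusted p = 0.0111), a call that ended without either vitrification library (0.0581 and 0.0857). It rose by 1.08 ± 0.39 in vitrification II against fresh control (adjusted p = 0.00696), which ended with a pseudocount of 0.1 (0.0729) and after quantile normalization (0.178). Its rise over vitrification (1.23 ± 0.44, adjusted p = 0.0373) ended under 11 alternatives (0.0523 to 0.192), among them the omission of control replicate 2 or 3, either vitrification library or any vitrification II library. SF3A1, the scaffold of the same complex, averaged 6.02 ± 0.457 FPKM in fresh control, 9.60 ± 2.80 in vitrification, 3.53 ± 1.75 for vitrification I and 16.5 ± 4.61 for vitrification II, and its rise from vitrification I to vitrification II (1.31 ± 0.37, adjusted p = 0.00101) held. Its rise in vitrification II against fresh control (0.67 ± 0.37, adjusted p = 0.0209) ended under 6 alternatives (0.0534 to 0.392), both rescalings and the omission of control replicate 2 or 3 or vitrification II replicate 1 or 3. SF3A3, which averaged 20.1 to 44.7, was called only in vitrification II against vitrification I (adjusted p = 0.0472, for the uncorrected difference). Its relative change there was 0.33 ± 0.38, smaller than its SE. That call ended under 15 alternatives (0.0514 to 0.49). Among them was the omission of 9 of the 11 libraries, all but control replicate 1 and vitrification I replicate 2.

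SF3B3 (ENSSSCG00000025323), a large scaffold subunit of SF3B, gave the largest member change against fresh control in vitrification II. It stood at 1.98, 0.754 and 2.07 FPKM in fresh control, 3.19 and 9.02 in vitrification, 1.83, 4.55 and 3.51 in vitrification I, and 20.5, 16.6 and 22.1 in vitrification II. All 3 vitrification II libraries lay above the other 8. The relative rise was 2.41 ± 0.42 against fresh control (adjusted p = 0.000424) and 1.63 ± 0.42 against vitrification I (adjusted p = 0.000793), and both calls held. Against vitrification it was 1.21 ± 0.47 (adjusted p = 0.0484), which ended under 12 alternatives (0.0569 to 0.304), among them the omission of control replicate 2 or 3, either vitrification library or any vitrification II library.

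SF3B4 (ENSSSCG00000006665), the SF3B subunit that contacts pre-mRNA near the branch point, stood at 34.2, 20.0 and 24.6 FPKM in fresh control, 16.3 and 22.2 in vitrification, 8.79, 13.4 and 2.31 for vitrification I and 55.8, 45.3 and 47.5 for vitrification II. Vitrification I lay below all other libraries and vitrification II above them. The rise from vitrification I to vitrification II (2.02 ± 0.46, adjusted p = 0.000553) held. The fall in vitrification I against fresh control (1.78 ± 0.46, adjusted p = 0.0159) ended with the 2 groups only (0.0538), without a filter (0.0884) and with the non-mitochondrial total (0.0506).

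SF3B5 (ENSSSCG00000062397), a small SF3B subunit, was the most abundant U2 gene. It stood at 115, 87.5 and 105 FPKM in fresh control, 77.8 and 47.3 in vitrification, 58.0, 80.9 and 22.5 in vitrification I, and 153, 136 and 131 in vitrification II. Its rise from vitrification I to vitrification II was 0.86 ± 0.42 (adjusted p = 0.0102) and ended without a filter (0.0522) and with the non-mitochondrial total (0.0854). SNRPA1, a core protein of the U2 particle, averaged 71.7 ± 35.2 FPKM in fresh control, 23.0 ± 0.717 in vitrification, 23.4 ± 13.2 for vitrification I and 76.8 ± 29.6 for vitrification II. It fell by 1.63 ± 0.46 in vitrification I against fresh control (adjusted p = 0.0232), a call that ended under 7 alternatives (0.0503 to 0.114), among them the omission of control replicate 1 or 3 or of vitrification I replicate 1 or 3. Its rise from vitrification I to vitrification II (1.08 ± 0.46, adjusted p = 0.00768) ended without a filter (0.0518) and with the non-mitochondrial total (0.0681). SF3B2, at 8.27 to 22.1 on average, rose in vitrification II over fresh control and over vitrification I, and each call ended under 7 alternatives, among them the omission of vitrification II replicate 1 or 2, with control replicate 2 or 3 in the first (0.0683 to 0.323) and vitrification I replicate 1 or 3 in the second (0.0757 to 0.294). SF3B6 and SNRPB2 were called in 0 of 6 comparisons.

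The 3′ splice site is read by U2AF, whose large subunit binds the polypyrimidine tract and whose small subunit touches the AG. In the F test 0 of 3 genes were called (limma, with 1 at an unadjusted p under 0.05), where 42.7% of all genes were. U2AF1 (ENSSSCG00000033653), the small subunit, stood at 58.2, 42.1 and 44.0 FPKM in fresh control, 34.2 and 39.7 in vitrification, 30.4, 52.4 and 14.5 in vitrification I, and 71.3, 66.5 and 41.3 in vitrification II. Fresh control and vitrification II overlapped, and their uncorrected difference was 0.28 ± 0.42 (adjusted p = 0.639), or -0.34 relative to the median gene. U2AF2 (ENSSSCG00000034815), the large subunit, was far lower, at 0.623, 0.518 and 0.573 in fresh control, 1.01 and 1.53 in vitrification, 0.426, 0.727 and 0.558 in vitrification I, and 2.30, 1.88 and 1.27 in vitrification II. On the uncorrected differences it was called higher in vitrification II than in fresh control (adjusted p = 0.0434) and than in vitrification I (adjusted p = 0.0306). The relative changes were 0.21 ± 0.28 and 0.15 ± 0.28, each smaller than its SE, so they were close to those of the median gene. The first call ended under 12 alternatives (0.0508 to 0.693), among them the omission of any control or vitrification II library. The second ended under 9 (0.0522 to 0.766), among them the omission of control replicate 3, replicate 1 or 3 of vitrification I or replicate 1 or 2 of vitrification II. U2AF1L4, a paralog of the small subunit, averaged 4.37 to 9.28 and was called in 0 of 6 comparisons.

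Proteins of U5 and the tri-snRNP build the catalytic centre. Of 10 tested, 6 were higher in vitrification II than in vitrification I, 3 higher in vitrification II than in fresh control, and 1 higher and 2 lower in vitrification I than in fresh control. The first 2 counts are 60.0% and 30.0%, where 34.7% and 24.6% of all genes were called higher, so the second stood near the share of all genes. In vitrification I the counts are 10.0% and 20.0%, where 8.85% and 9.77% were called. The 6 became 2 under each rescaling, and the 3 became 1 after quantile normalization and 2 with the non-mitochondrial total. PRPF8 (ENSSSCG00000017817), the scaffold around the catalytic RNA, stood at 0.659, 0.611 and 1.40 FPKM in fresh control, 3.24 and 8.01 in vitrification, 4.37, 5.61 and 1.85 in vitrification I, and 8.74, 4.65 and 9.14 in vitrification II. All 8 vitrified libraries lay above all 3 control libraries. The relative rise in vitrification II against fresh control was 1.53 ± 0.43 (adjusted p = 0.00338) and held. In vitrification I the rise of 1.33 ± 0.43 (adjusted p = 0.0428) ended under 10 alternatives (0.0524 to 0.141), among them the omission of any control library, of vitrification I replicate 1 or 2 or of vitrification II replicate 1 or 3. In vitrification the difference of 1.55 ± 0.48 did not pass (adjusted p = 0.0745).

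SNRNP200, the helicase that unwinds U4 from U6, showed the same order of control below the vitrified libraries. It stood at 3.39, 2.81 and 3.12 FPKM in fresh control, 8.17 and 14.7 in vitrification, 5.38, 7.19 and 3.99 in vitrification I, and 15.2, 15.4 and 10.8 in vitrification II. The rise in vitrification II against fresh control was 1.22 ± 0.36 (adjusted p = 0.00286) and ended after quantile normalization (0.0642). Against vitrification I it was 0.51 ± 0.36 (adjusted p = 0.0166), which ended under 5 alternatives (0.0547 to 0.354), among them the omission of replicate 3 of vitrification I or replicate 1 or 2 of vitrification II. The difference of 1.36 ± 0.40 in vitrification did not pass (adjusted p = 0.0599).

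PRPF31 (ENSSSCG00000003263), which bridges U4/U6 to U5, moved like SNRPA and SF3A2. It stood at 3.59, 5.12 and 6.51 FPKM in fresh control, 3.65 and 4.42 in vitrification, 0.403, 0.704 and 0.05 in vitrification I, and 12, 9.83 and 7.70 in vitrification II. Vitrification I lay below every other library and vitrification II above. It fell by 2.13 ± 0.36 in vitrification I against fresh control (adjusted p = 0.00143) and was 2.29 ± 0.36 higher in vitrification II than in vitrification I (adjusted p = 5.73e-05), and both calls held. Its fall against vitrification (1.63 ± 0.40, adjusted p = 0.0181) ended without either vitrification library or vitrification I replicate 1 (0.0528 to 0.0954).

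SNRNP40, a WD-repeat protein of U5, averaged 35.5 ± 10.3 FPKM in fresh control, 18.2 ± 1.36 in vitrification, 14.6 ± 13.5 for vitrification I and 63.2 ± 13.5 for vitrification II. Its rise from vitrification I to vitrification II (1.67 ± 0.48, adjusted p = 0.00173) held. Its fall in vitrification I against fresh control (1.53 ± 0.48, adjusted p = 0.0378) ended under 10 alternatives (0.05 to 0.166), among them the omission of any control or vitrification library or of vitrification I replicate 1 or 3. SNRNP27 (ENSSSCG00000025674), a small tri-snRNP protein and the most abundant gene of this class, went the other way in vitrification I. It stood at 64.3, 32.0 and 46.3 in fresh control, 34.2 and 41.8 in vitrification, 107, 99.3 and 69.8 in vitrification I, and 90.7, 94.4 and 104 in vitrification II. Only the difference between vitrification II and fresh control was called (0.43 ± 0.34, adjusted p = 0.0351), and it ended under 9 alternatives (0.0538 to 0.175), among them the omission of control replicate 2 or 3 or of any vitrification II library.

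PRPF3 and PRPF4, which bind each other on U4/U6, were both called higher in vitrification II than in vitrification I (0.63 ± 0.36 and 0.98 ± 0.40, adjusted p = 0.0114 and 0.00524). Each call ended under 2 alternatives, the rescalings, with adjusted p = 0.184 to 0.221 for PRPF3 and 0.0601 to 0.063 for PRPF4. PRPF18, a factor of the second catalytic step, averaged 1.33 to 4.33 FPKM and was called in the same comparison (0.64 ± 0.47, adjusted p = 0.0355). That call ended under 8 alternatives (0.0537 to 0.339), among them the omission of vitrification I replicate 2 or 3 or of any vitrification II library. PRPF6 and PRPF38A were called in 0 of 6 comparisons.

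Among the PRPF factors outside the tri-snRNP, PRPF39 (ENSSSCG00000004997), an alternative splicing factor of U1, stood at 4.64, 1.54 and 1.5 FPKM in fresh control, 3.14 and 6.09 in vitrification, 1.97, 5.27 and 3.56 in vitrification I, and 11.9, 10.7 and 11.6 in vitrification II. All vitrification II libraries lay above the rest. The rise was 1.28 ± 0.42 against fresh control (adjusted p = 0.00565), which ended after quantile normalization (0.0811). It was 0.81 ± 0.42 against vitrification I (adjusted p = 0.0121), which ended after both rescalings and without vitrification I replicate 1 (0.0572 to 0.153). PRPF19, the ubiquitin ligase of the activated spliceosome, reached 1.48 FPKM in vitrification II replicate 1 and stayed below 1 in the other 10 libraries. PRPF40B and HNRNPUL2 stayed at 0.527 and 0.579 or below.

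The minor spliceosome removes a rare class of introns with U11 and U12 in place of U1 and U2. In the F test 0 of its 3 genes were called (limma, with 0 at an unadjusted p under 0.05), where 42.7% of all genes were. SNRNP25 (ENSSSCG00000007962), a U11/U12 protein, stood at 39.8, 18.7 and 20.0 FPKM in fresh control, 14.8 and 15.6 in vitrification, 12.2, 19.6 and 5.82 in vitrification I, and 35.4, 24.9 and 8.04 in vitrification II. The libraries of vitrification II spanned most of the range of the others. SNRNP35 and SNRNP48 averaged 0.952 to 2.30 and 2.40 to 4.24.

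SR proteins bind exonic enhancers and recruit U1 and U2AF. Of 11 tested, 5 rose in vitrification II against fresh control and 6 against vitrification I, and 1, SRSF2, fell in vitrification I against fresh control. These are 45.5%, 54.5% and 9.09%, where 24.6%, 34.7% and 9.77% of all genes were called in those directions. With the non-mitochondrial total the first 2 counts were each 1. After quantile normalization the first was 0 and the second 2, with SRSF11 then called lower in vitrification II than in vitrification I. SRSF2 (ENSSSCG00000036592), also known as SC35, stood at 8.44, 5.24 and 6.08 FPKM in fresh control, 1.74 and 3.69 in vitrification, 1.45, 0.552 and 0.769 in vitrification I, and 17.4, 3.40 and 8.16 in vitrification II. Vitrification I lay below all other libraries. The fall against fresh control was 1.98 ± 0.47 (adjusted p = 0.0104) and ended without a filter (0.0673). The rise from vitrification I to vitrification II was 1.58 ± 0.47 (adjusted p = 0.00202) and held.

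SRSF3 (ENSSSCG00000001564), the shortest family member, which also hands mRNA to the export receptor, was the most abundant SR gene. It stood at 24.1, 36.5 and 33.9 FPKM in fresh control, 38.9 and 39.8 in vitrification, 33.9, 33.6 and 11 in vitrification I, and 74.3, 75.4 and 75.7 in vitrification II. The 3 vitrification II libraries lay close together and above all the rest. Its rise over vitrification I was 0.96 ± 0.41 (adjusted p = 0.0058) and ended with the non-mitochondrial total (0.0594). Its rise over fresh control was 0.63 ± 0.41 (adjusted p = 0.035) and ended under 9 alternatives (0.06 to 0.208), among them the omission of any control or vitrification II library.

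SRSF7, close to SRSF3 in sequence and role, averaged 14.5 ± 1.94 FPKM in fresh control, 31.1 ± 5.42 in vitrification, 17.5 ± 7.69 for vitrification I and 48.1 ± 14.0 for vitrification II. It rose by 1.01 ± 0.39 in vitrification II against fresh control (adjusted p = 0.0083), a call that ended after quantile normalization (0.0768). SRSF1 (ENSSSCG00000017626), the founding member of the family, stood at 5.6, 1.94 and 2.81 in fresh control, 4.51 and 11.6 in vitrification, 16.4, 8.84 and 3.37 in vitrification I, and 16.5, 16.1 and 9.83 in vitrification II. Its rise in vitrification II against fresh control was 1.19 ± 0.51 (adjusted p = 0.0184) and ended under 7 alternatives (0.0533 to 0.218), among them the omission of control replicate 2 or 3 or vitrification II replicate 1 or 2. SRSF4 and SRSF10 rose in vitrification II over both fresh control and vitrification I, and SRSF6 and SRSF7 against vitrification I. Of these 6 calls that of SRSF7 ended under the 2 rescalings alone (0.0928 and 0.106). The other 5 ended under 6 to 13 alternatives, among them in each the omission of vitrification II replicate 1 or 3. Against fresh control SRSF4 and SRSF10 were also lost without control replicate 2 or 3 or vitrification II replicate 2, SRSF10 without control replicate 1, and SRSF4 without either vitrification library or vitrification I replicate 1. Against vitrification I the calls were also lost without vitrification I replicate 2 for SRSF4 and SRSF6, without vitrification I replicate 1 or 3 for SRSF6 and SRSF10, and without vitrification II replicate 2 for SRSF10. SRSF5, SRSF9, SRSF11 and SRSF12 were called in 0 of 6 comparisons. SRSF11 averaged 27.3 ± 2.54 in vitrification I and 16.4 ± 4.34 in vitrification II, with no overlap, but the uncorrected difference of -0.73 ± 0.44 (-1.41 relative) did not pass (adjusted p = 0.199).

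**Figure D3:**
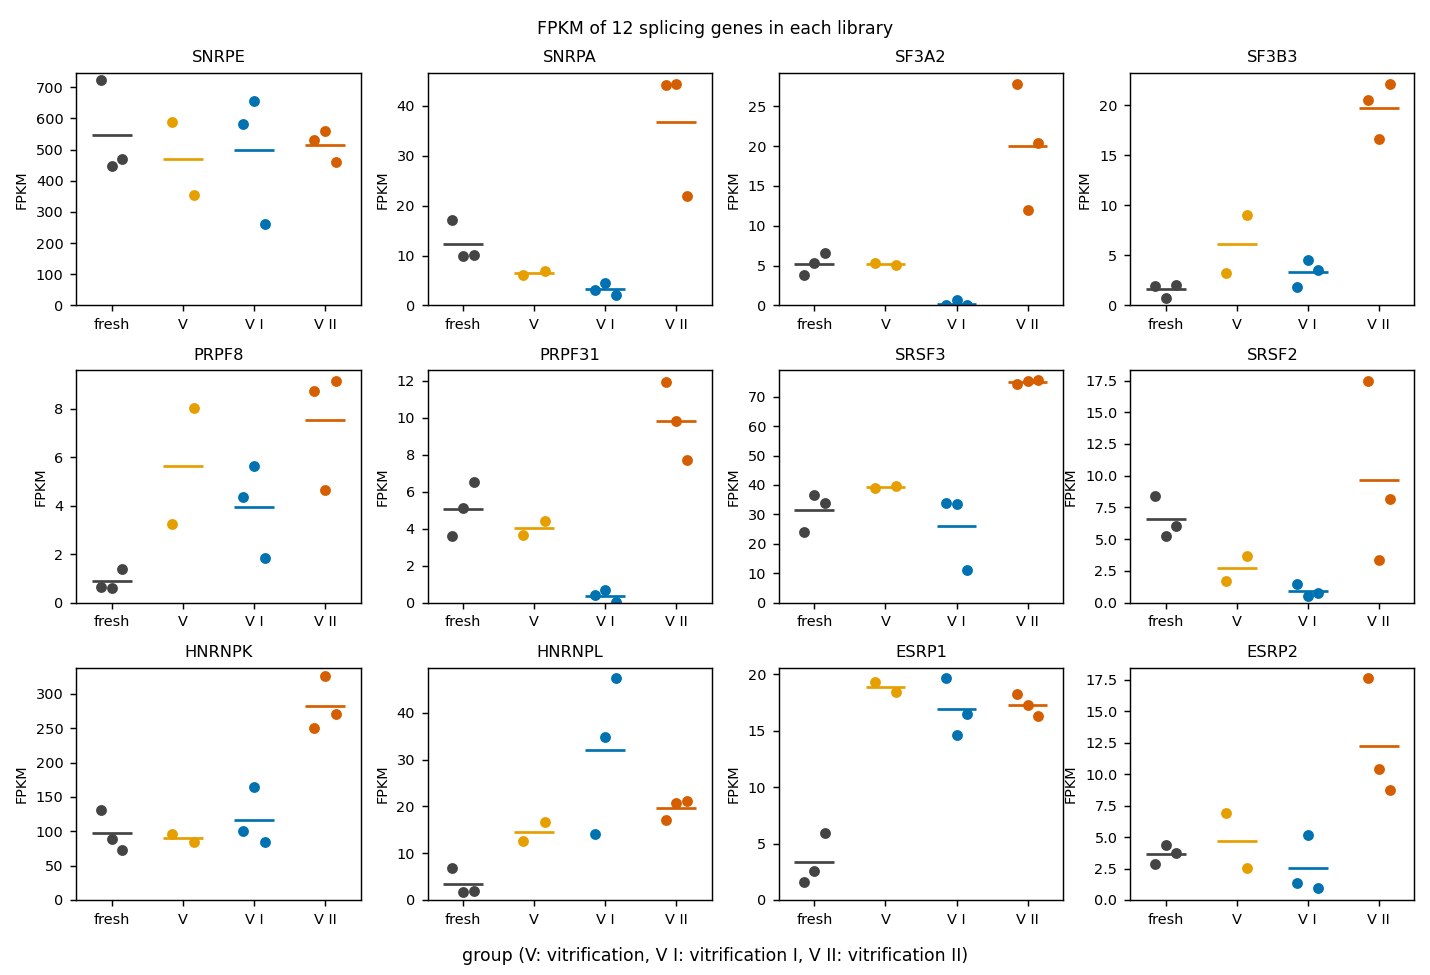
FPKM of 12 splicing genes, 1 point for each of the 11 libraries and a bar at each group mean, on linear axes from 0. SNRPE overlaps between all groups, SNRPA, SF3A2, PRPF31 and SRSF2 dip in vitrification I, SF3B3, SRSF3 and HNRNPK are high in vitrification II alone, and ESRP1 and PRPF8 are low in fresh control alone.

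The hnRNP proteins coat nascent transcripts, and several repress exons. In the F test 10 of 14 were called, or 71.4%, where 42.7% of all genes were. Of the 14 tested, 7 rose in vitrification II and 4 in vitrification I against fresh control, and 4 rose in vitrification II against vitrification I. Against fresh control these are 50.0% and 28.6%, where 24.6% and 8.85% of all genes were called higher. Against vitrification I the share was 28.6%, below the 34.7% of all genes, and after quantile normalization that count was 3 higher and 3 lower, and 2 higher with the non-mitochondrial total. The 4 rises in vitrification I were also 4 after each of the rescalings. Counted against fresh control, the 7 became 1 after quantile normalization and 3 with the non-mitochondrial total. The median relative change in vitrification II against fresh control was 0.68, against 0.22 for all members, and in vitrification I the median change was 0.28 above that of all genes.

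HNRNPL (ENSSSCG00000035570), which binds CA-rich repeats and controls exon inclusion, showed the largest rise in vitrification I. It stood at 6.84, 1.60 and 2.02 FPKM in fresh control, 12.5 and 16.6 in vitrification, 14.2, 34.9 and 47.4 in vitrification I, and 17.1, 20.8 and 21.1 in vitrification II. All 8 vitrified libraries lay above all control libraries. The rise in vitrification I was 2.91 ± 0.48 (adjusted p = 0.00132) and held. In vitrification II it was 1.76 ± 0.48 (adjusted p = 0.0035) and ended after quantile normalization (0.0587). In vitrification the difference of 1.78 ± 0.54 did not pass (adjusted p = 0.073).

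HNRNPD (ENSSSCG00000009249), also known as AUF1, which binds AU-rich elements and speeds mRNA decay, was likewise lowest in fresh control. It stood at 6.09, 4.39 and 3.19 FPKM in fresh control, 12.4 and 21.9 in vitrification, 34.3, 15.5 and 12.6 in vitrification I, and 11, 15.1 and 12.3 in vitrification II, so that again all vitrified libraries lay above all controls. The rise in vitrification I was 1.88 ± 0.41 (adjusted p = 0.00715) and held. In vitrification II the relative rise was 0.71 ± 0.41 (adjusted p = 0.0285) and ended under 8 alternatives (0.0524 to 0.479), among them the omission of control replicate 2 or 3 or any vitrification II library. In vitrification the difference of 1.5 ± 0.46 did not pass (adjusted p = 0.0731).

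HNRNPA1 (ENSSSCG00000000288), an abundant repressor of exons that also shuttles to the cytoplasm, stood at 178, 69.1 and 92.4 FPKM in fresh control, 86.4 and 146 in vitrification, 540.4, 285 and 189 for vitrification I and 263, 328 and 267 for vitrification II. Vitrification I and vitrification II both lay above every control library. The rise in vitrification I was 1.55 ± 0.43 (adjusted p = 0.0225) and ended under 5 alternatives (0.0583 to 0.113), among them the omission of control replicate 2 or 3 or vitrification I replicate 1. In vitrification II it was 0.82 ± 0.43 (adjusted p = 0.0257) and ended under 8 (0.0544 to 0.127), among them the omission of control replicate 2 or 3 or any vitrification II library. HNRNPA1 has near-identical processed copies in mammals, so its level is uncertain in how shared reads were counted.

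HNRNPA2B1 (ENSSSCG00000036350), a close relative, stood at 35.8, 27.0 and 28.7 FPKM in fresh control, 47.8 and 49.4 in vitrification, 42.0, 37.3 and 21.8 in vitrification I, and 69.3, 67.9 and 90.0 in vitrification II. Here vitrification II alone lay above all the rest. The rise was 0.66 ± 0.34 over fresh control (adjusted p = 0.0143) and 0.50 ± 0.34 over vitrification I (adjusted p = 0.0135). The first call ended after quantile normalization and without control replicate 2 or 3 or vitrification II replicate 3 (0.0577 to 0.095), the second after both rescalings and without vitrification II replicate 3 (0.0565 to 0.247).

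The H group of hnRNP proteins binds runs of G, and its members differed in pattern. HNRNPH1 (ENSSSCG00000014022) stood at 21.8, 11.1 and 9.22 FPKM in fresh control, 7.43 and 10.7 in vitrification, 7.25, 10.2 and 10.2 in vitrification I, and 77.9, 38.5 and 22.5 in vitrification II. HNRNPH3 (ENSSSCG00000010238) stood at 13.8, 10.3 and 7.91, then 6.51 and 9.74, then 0.877, 8.48 and 9.98, then 26.5, 36.4 and 29.7 in the same order of groups. Both were highest in vitrification II, and both rose there over vitrification I, by 1.36 ± 0.45 (adjusted p = 0.0029) and 1.76 ± 0.54 (adjusted p = 0.00293), and these calls held.

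HNRNPH2 (ENSSSCG00000056417) was instead highest in vitrification I. It stood at 18.5, 17.4 and 18.5 FPKM in fresh control, 11.5 and 27.8 in vitrification, 77.8, 61.5 and 39.2 in vitrification I, and 31.1, 32.9 and 58.0 in vitrification II. The rise in vitrification I was 1.61 ± 0.40 against fresh control (adjusted p = 0.0134), which ended without a filter (0.0568) and without vitrification I replicate 1 (0.0616). Against vitrification it was 1.87 ± 0.45 (adjusted p = 0.0477), which ended under 13 alternatives (0.05 to 0.318), among them the omission of 9 of the 11 libraries, all but control replicate 1 and vitrification I replicate 3. The rise of HNRNPH1 in vitrification II was 0.95 ± 0.45 over fresh control (adjusted p = 0.0204) and 1.61 ± 0.50 over vitrification (adjusted p = 0.0314). These calls ended under 6 and 8 alternatives (0.0621 to 0.238 and 0.0633 to 0.171), among them the omission of control replicate 2 or 3 or vitrification II replicate 1 in the first, and of either vitrification library or vitrification II replicate 1 or 2 in the second. HNRNPH1 and HNRNPH2 are similar in sequence, and reads that fit both could have been counted for either.

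HNRNPK (ENSSSCG00000022760), which binds C-rich stretches of RNA, and DNA, stood at 131, 88.6 and 72.7 FPKM in fresh control, 96.5 and 85.0 in vitrification, 99.7, 164 and 84.6 in vitrification I, and 249.9, 325 and 271 in vitrification II. Vitrification II lay above all other libraries, which overlapped each other. The rise over fresh control was 0.94 ± 0.35 (adjusted p = 0.00643) and held. The rise over vitrification I was 0.64 ± 0.35 (adjusted p = 0.00881) and ended with the non-mitochondrial total (0.135). Over vitrification it was 1.16 ± 0.39 (adjusted p = 0.0314) and ended under 8 alternatives (0.06 to 0.134), among them the omission of either vitrification library or any vitrification II library.

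HNRNPUL1 (ENSSSCG00000030049), of the scaffold-attachment group, was highest in vitrification. It stood at 2.30, 1.67 and 1.96 FPKM in fresh control, 4.33 and 7.5 in vitrification, 0.879, 2.52 and 1.18 in vitrification I, and 3.99, 3.11 and 3.40 in vitrification II. It was 1.21 ± 0.40 lower in vitrification I than in vitrification (adjusted p = 0.0431), which ended under 13 alternatives (0.0512 to 0.238), among them the omission of control replicate 2 or 3, either vitrification library, vitrification I replicate 1 or 3 or any vitrification II library. HNRNPU, a nuclear scaffold protein of the same group, averaged 7.39 ± 4.05, 22.7 ± 12.9, 12.2 ± 1.53 and 18.6 ± 1.73 in the order fresh control, vitrification, vitrification I and vitrification II. It rose by 0.70 ± 0.40 in vitrification II against fresh control (adjusted p = 0.0278), which ended under 8 alternatives (0.0591 to 0.435), among them the omission of control replicate 2 or 3 or any vitrification II library. HNRNPDL, HNRNPLL, HNRNPM and HNRNPR were called in 0 of 6 comparisons. HNRNPM, at 33.4 ± 2.76, 34.7 ± 2.54, 38.3 ± 4.70 and 61.2 ± 8.02 FPKM, came close in vitrification II against fresh control (adjusted p = 0.0538, for the uncorrected difference). Its relative change there was 0.23 ± 0.31.

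The epithelial regulators ESRP1 and ESRP2 direct exon choice in transcripts such as FGFR2 and CD44. ESRP1 (ENSSSCG00000006099) separated fresh from vitrified embryos. It stood at 1.59, 2.56 and 5.90 FPKM in fresh control, 19.3 and 18.5 in vitrification, 19.7, 14.6 and 16.5 in vitrification I, and 18.2, 17.3 and 16.3 in vitrification II. All 8 vitrified libraries lay between 14.6 and 19.7, and all 3 control libraries lay below 6. The rise in vitrification I was 2.16 ± 0.38 (adjusted p = 0.00198) and held. In vitrification II it was 1.57 ± 0.38 (adjusted p = 0.00142) and ended after quantile normalization (0.0582). In vitrification it was 2.13 ± 0.42 (adjusted p = 0.0214), the only member call of that comparison, and ended in the fit on the 2 groups only (0.0844), without control replicate 2 (0.1) and without vitrification replicate 2 (0.242). The 3 comparisons share the same control libraries. Between vitrified groups the uncorrected differences were -0.16 ± 0.42 for vitrification I against vitrification, with a 95% interval of -1.06 to 0.74, and 0.04 ± 0.38 for vitrification II against vitrification I, with an interval of -0.77 to 0.84. Relative to the median gene these differences were 0.10 and -0.65.

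ESRP2 (ENSSSCG00000035227) did not share that pattern. It stood at 2.84, 4.41 and 3.75 FPKM in fresh control, 6.90 and 2.52 in vitrification, 1.34, 5.20 and 0.990 in vitrification I, and 17.6, 10.4 and 8.77 in vitrification II. Only vitrification II lay above all other libraries. The rise over vitrification I was 1.37 ± 0.47 (adjusted p = 0.0037) and ended after quantile normalization (0.0721). Over fresh control it was 0.84 ± 0.47 (adjusted p = 0.0335) and ended under 10 alternatives (0.0501 to 0.5), among them the omission of any control or vitrification II library. The trophectoderm, the epithelium of the blastocyst, was followed through its 11 markers, whose part in the ESRP levels was not tested. In vitrification II 4 of the 11 lay above every control library (KRT8, TFAP2A, ELF3 and CDH1), 1 lay below (KRT18) and 6 overlapped. In vitrification I 1 lay above (TFAP2A), 4 below (KRT8, KRT18, ELF3 and TEAD4) and 6 overlapped, and in vitrification 2 lay above (TFAP2A and CDH1), 3 below (TFAP2C, TEAD4 and DAB2) and 6 overlapped. Of all genes, 44.0% lay above and 3.41% below in vitrification II. These shares were 17.3% and 18.9% in vitrification I, and 25.5% and 11.5% in vitrification. CDH1, the epithelial cadherin, stood at 20.3 to 35.1 FPKM in fresh control, 48.1 and 77.6 in vitrification, 28.3 to 76.4 for vitrification I and 166 to 222 for vitrification II. KRT18, an epithelial keratin, stood at 3846 to 4806, then 2202 and 3891, then 1088 to 2426, then 2197 to 2968 in the same order. TFAP2A, a trophectoderm transcription factor, stood at 6.21 to 13.7, then 20.9 and 35.4, then 95.8 to 154, then 50.4 to 133. These markers therefore did not move together.

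The make-up of the splicing mRNA within a library stays the same when all its values are multiplied by a common factor. Quantile normalization is not such a scaling, and the shares below were taken from the deposited FPKM alone. Sm ring transcripts held 40.1% ± 1.11 of the summed FPKM of the 64 genes in fresh control, 36.6% ± 11.2 in vitrification, 33.9% ± 3.41 for vitrification I and 25.0% ± 1.54 for vitrification II. The 3 vitrification II libraries, at 23.3% to 26.3%, lay below all others. The hnRNP transcripts held 21.9% ± 0.129, 27.2% ± 6.06, 37.5% ± 5.40 and 33.6% ± 2.02 in the same order, and every library of vitrification I and vitrification II, at 31.3% or more, lay above every control library. In vitrification the 2 libraries differed, with 44.5% Sm ring and 22.9% hnRNP in replicate 1 and 28.7% and 31.4% in replicate 2. In FPKM the Sm ring sum was 717 ± 222 in fresh control and 707 ± 83.1 in vitrification II, while the hnRNP sum was 389 ± 109 and 944 ± 47.7, so the Sm ring share was lower in vitrification II at a similar Sm ring level and a higher hnRNP level. In vitrification I the sums were 664 ± 257 and 710 ± 207.

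U2 transcripts held 16.6% ± 0.676 in fresh control, 12.6% ± 0.450 in vitrification, 8.51% ± 1.70 for vitrification I and 15.9% ± 0.745 for vitrification II, and the vitrification I libraries were the lowest. U1 transcripts held 0.735% ± 0.0399, 0.458% ± 0.0480, 0.194% ± 0.0311 and 1.42% ± 0.395, with no overlap between any 2 groups. SR transcripts held 6.82% ± 0.984, 9.36% ± 2.49, 6.50% ± 0.349 and 8.96% ± 1.08. These shares are weighted to abundant genes, since SNRPE alone makes up most of the Sm ring and HNRNPA1 and HNRNPK much of the hnRNP level, and they are given as a description with no test.

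**Figure D4:**
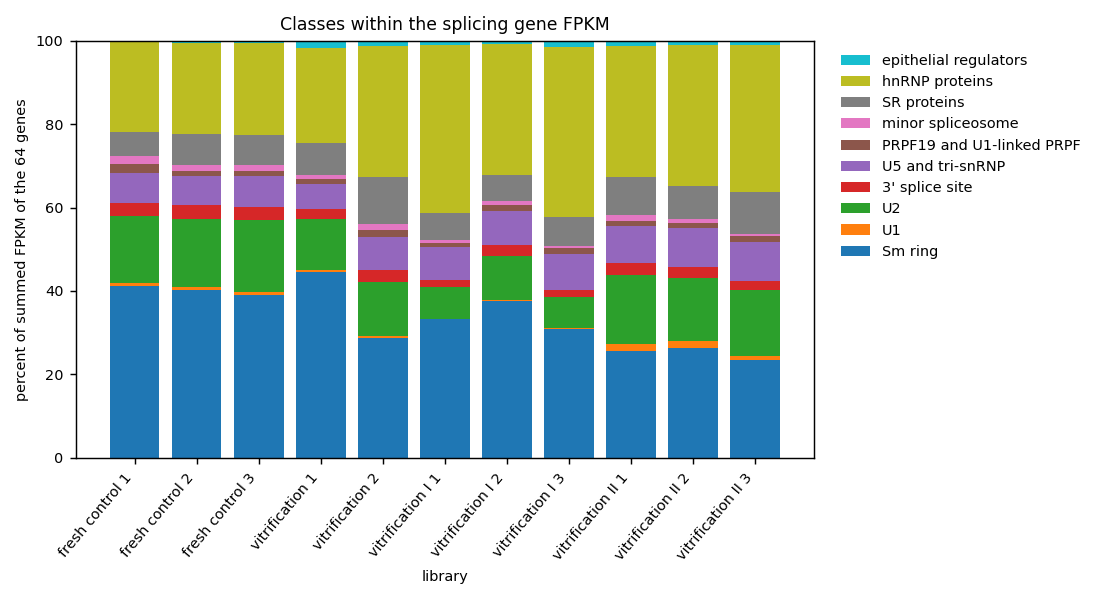
Stacked bars give, for each of the 11 libraries, the percent of the summed FPKM of the 64 splicing genes held by each of the 10 classes. The Sm ring share is 40.1% in fresh control and 25.0% in vitrification II, with similar summed FPKM (717 and 707), the hnRNP share grows from 21.9% to 37.5% in vitrification I and 33.6% in vitrification II, and the U2 share is smallest in vitrification I (8.51%).

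Splicing genes outside the symbol rule were taken from a list of 108 (LSM proteins, helicases, factors of the activated and exon junction complexes, SR kinases, other RNA-binding regulators and the SMN complex that loads the Sm ring). Of these, 101 had a symbol in the table and 99 passed the filter. In vitrification II 26 rose and 0 fell against fresh control (limma; 53 higher and 0 lower with the unadjusted p under 0.05), or 26.3% where 24.6% of all genes were called higher. Against vitrification I 48 rose and 1 fell, or 48.5% and 1.01%, where 34.7% and 3.75% of all genes were called. In vitrification I 7 rose and 11 fell against fresh control, or 7.07% and 11.1%, where 8.85% and 9.77% of all genes were called. The shares against fresh control thus stood near those of all genes. In vitrification 0 were called (limma; 10 higher and 1 lower with the unadjusted p under 0.05). Their median relative changes in these comparisons were 0.20, 0.26, -0.03 and -0.11, against 0.22, 0.32, -0.05 and -0.17 for the members. In the F test 49 of 99 were called, or 49.5%, where 42.7% of all genes were.

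These counts also moved with the setting. The 26 rises against fresh control became 4 with 1 fall after quantile normalization (4.04% higher, against 4.11% of all genes) and 16 with the non-mitochondrial total (16.2%, against 12.7%). They became 17 without a filter, 8 without control replicate 2, 13 without control replicate 3 and 17 without vitrification II replicate 1. The 48 rises and 1 fall against vitrification I became 24 and 8 after quantile normalization (24.2% and 8.08%, against 13.6% and 14.6% of all genes), and 20 and 2 with the non-mitochondrial total (20.2% and 2.02%, against 16.5% and 7.46%). The 7 rises and 11 falls in vitrification I became 10 and 3 with the non-mitochondrial total, and 5 and 6 without a filter. They became 3 and 7 without control replicate 2, 4 and 5 without control replicate 3, and 5 and 5 without vitrification I replicate 1 or with the 2 groups only. They became 9 and 6 without control replicate 1, 6 and 18 without vitrification I replicate 2, and 8 and 4 without vitrification I replicate 3. The count of 0 in vitrification against fresh control became 1 without vitrification replicate 1.

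DHX15, the helicase that takes spent spliceosomes apart, stood at 7.10, 4.34 and 7.04 FPKM in fresh control, 10.4 and 19.0 in vitrification, 15.0, 18.0 and 18.7 in vitrification I, and 58.6, 45.7 and 55.7 in vitrification II. Its relative rise in vitrification II against fresh control was 2.32 ± 0.35 (adjusted p = 0.000217), close to that of SF3B3. EFTUD2, the GTPase of U5 that works beside PRPF8 and SNRNP200, stood at 9.94, 3.23 and 8.20, then 5.34 and 5.61, then 3.21, 2.82 and 0.878, then 34.0, 27.8 and 29.6 in the same order of groups. It was 2.65 ± 0.42 higher in vitrification II than in vitrification I (adjusted p = 8.67e-05) and 1.44 ± 0.42 higher than in fresh control (adjusted p = 0.00402). AQR, the intron-binding helicase, averaged 0.695 in fresh control and 6.18 in vitrification II and rose by 1.48 ± 0.37 (adjusted p = 0.0016). These 4 calls held under all 18 alternatives, which were added for this list after its values were seen.

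RNPS1, a protein of the exon junction complex, stood at 69.4, 82.3 and 80.8 FPKM in fresh control, 73.3 and 64.7 in vitrification, 13.8, 22.4 and 7.84 in vitrification I, and 162, 165 and 121 in vitrification II. No 2 groups overlapped except fresh control with vitrification. It fell by 2.43 ± 0.37 in vitrification I against fresh control (adjusted p = 0.000829) and was 2.68 ± 0.37 higher in vitrification II than in vitrification I (adjusted p = 3.31e-05). RALY, an hnRNP relative, fell by 2.42 ± 0.43 in vitrification I, from a mean of 43.2 to 8.40 (adjusted p = 0.00233), and was 2.17 ± 0.43 higher in vitrification II (adjusted p = 0.000264). QKI, a regulator that binds near exon borders, rose by 2.24 ± 0.44 in vitrification I, from 3.31 to 18.3 (adjusted p = 0.00366). All 5 of these calls held. Against vitrification, the calls of this list were lower in vitrification I for RNPS1, RALY and GEMIN8, and each ended without either vitrification library (adjusted p up to 0.167). RALY and GEMIN8 were also lost without vitrification I replicate 1 or 3, and GEMIN8 without control replicate 2 or 3. The 6 rises in vitrification II against vitrification, led by EFTUD2, RBM22 and DHX15, were 0 without either vitrification library, without any 1 vitrification II library, with a pseudocount of 0.1 and with the non-mitochondrial total, and 1 after quantile normalization. They became 2 and 3 without control replicates 3 and 2, 12 and 17 without vitrification I replicates 2 and 3, 14 without control replicate 1, and 24 with the 2 groups only. Before any such change they were 6.06% of the list, where 5.05% of all genes were called higher. The 3 falls in vitrification I against vitrification were 3.03% of the list, with 0 rises, where 4.42% of all genes were called lower and 1.21% higher. These falls became 9 without vitrification I replicate 2, 5 without control replicate 1, and 1 without vitrification I replicate 1, with the replicate block or with the 2 groups only. They became 1 with 1 rise without vitrification I replicate 3, and 5 with 2 rises after quantile normalization.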

How the data were processed

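The deposited table holds FPKM made by the authors, 1 value per Ensembl pig gene identifier and library, for 11 of the 12 labelled samples, and 0 of its sample columns were left unused. Per the submitters' processing notes FastQC, TopHat2 2.0.13, Cufflinks 2.2.1 and DESeq2 were used, without roles. Genome build, strand setting and annotation are not given in the sources used here, so no coordinates are printed. Symbols came from a table of Ensembl gene names and cover 86.7% of the 9411 genes kept (FPKM of 1 or more in 3 or more libraries). A model on log2(FPKM + 1) over all 11 libraries was fitted with limma 3.58.1 (trend on, R 4.3.3, two-sided tests) and tested on simulated data. The simulated noise was independent between genes and held no shift of whole libraries, so that test cannot decide which scale is right. Libraries were grouped by their labels, and 0 pairs were identical.

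Values in every library are given, per comparison, for up to 5 called members with the largest change in each direction, for the most abundant member of each class and for a fixed set of well-known factors. A member that the rule would name is not reported here. SNRNP200 and the markers shown singly were chosen after their values were seen. Of the other splicing genes, up to 3 with the largest called change per comparison are named. The members and lists were chosen with earlier results of these data known. The alternatives tried are listed in the report.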

Additional observations from a re-analysis of the deposited data

How the results depend on the processing

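No called splicing gene turned direction under quantile normalization or the non-mitochondrial total. Of 125 recomputed counts of called members 81 stayed within 1.5 times the reported one. The F test count of 32 was 21 of 64 without a filter, where 3106 of 24211 genes were called. With the non-mitochondrial total it was 19 of 61, where 2781 of 9411 genes were called, so the share then stood near that of all genes. After quantile normalization it was 22 of 61, where 2927 of 9411 genes were called. In vitrification against fresh control the count of 1 was 0 with the 2 groups only (limma; 12 at an unadjusted p under 0.05) and 2 without a filter. In vitrification I against fresh control 13 became 8 with the 2 groups only and 6 without a filter, and against vitrification 4 became 2 with the 2 groups only and 2 with a pseudocount of 0.1. In vitrification II against fresh control 25 became 14 without a filter, 3 after quantile normalization and 12 with the non-mitochondrial total. Against vitrification I 30 became 19 and 12 under the same rescalings. Against vitrification 6 became 15 with the 2 groups only, 1 with a pseudocount of 0.1, 1 after quantile normalization and 0 with the non-mitochondrial total (limma; 10 at an unadjusted p under 0.05). The cause was not tested.

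Leaving out 1 library at a time gave 23 to 36 calls in the F test, 0 to 2 in vitrification, 8 to 14 in vitrification I and 9 to 30 in vitrification II against fresh control. It gave 21 to 31 in vitrification II against vitrification I, 0 to 11 in vitrification II and 0 to 5 in vitrification I against vitrification. The labels do not say whether libraries with the same replicate number belong together. Over 15 pairs with the same number the correlation of deviations ran from -0.16 to 0.14, against -0.14 to 0.16 for other pairs. Of 11 libraries 4 correlated best with their own number. Deviations from the mean of so few libraries are tied to each other, so these values cannot decide whether a pairing exists. With a replicate block the counts, in the order of the leave-out counts above, were 29, 1, 12, 22, 28, 4 and 2. Without counts the depth is unknown, so no limit for genes listed at 0 can be given.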

Other observations

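Within groups, single libraries ranked high or low over many splicing genes. Control replicate 1 was the highest control library for 46 of 61 tested splicing genes (75.4%), against 56.2% of all genes. Vitrification I replicate 3 was the lowest library of its group for 46 of 61 (75.4%), against 52.4% of all genes. Vitrification replicate 2 lay above replicate 1 for 50 of 61 (82.0%), against 68.5% of all genes.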
